A study of Homo sapiens with 27 samples.

Results

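The secreted class 3 semaphorins and the neuropilins, the ligands and the ligand-binding receptors of a single signaling system, were followed in *GNAQ* mutant uveal melanoma cells under continued inhibition of the kinase FAK. The genes were taken from the count table by symbol, as the 7 class 3 semaphorins *SEMA3A*, *SEMA3B*, *SEMA3C*, *SEMA3D*, *SEMA3E*, *SEMA3F* and *SEMA3G* and the 2 neuropilins *NRP1* and *NRP2*. These are 9 of the 61533 genes of the table, and the rule that selects them uses the symbol alone. The cells are the line 92.1, which was derived from a uveal melanoma, a tumor of the pigment cells of the eye. They received either DMSO, the solvent control, or VS-4718, a FAK inhibitor (FAKi), at 100 nM, with medium and treatment renewed every 72 h. mRNA was sequenced in 9 groups of 3 libraries, which were day 0 of DMSO and both treatments on days 3, 7, 14 and 21, so that day 0 has no FAKi group and all groups share the same parent line. A single cell line was used, and where the text speaks of replicates, the labels do not say whether their number counts parallel plates or separate experiments, so the p-values may measure technical spread alone.

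Class 3 semaphorins are secreted guidance proteins that were first studied for repelling growing axons. They bind neuropilins, which have a short cytoplasmic tail, and the signal is carried into the cell by a plexin held in the same receptor complex. *SEMA3E* is the exception, since it can bind plexin D1 directly. Neuropilins also bind members of the VEGF family, and for several ligands a furin-like protease sets the activity by cleavage. Inside the cell, plexin signaling reaches small GTPases, integrins and the cytoskeleton, where FAK also acts. *SEMA3B* and *SEMA3F* are known as genes of a region of chromosome 3 that is often lost in cancer, and *NRP2* is a usual receptor of *SEMA3F* while *SEMA3A* acts mainly through *NRP1*.

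On the hg38 build used by the files, 4 of the ligand genes lie on the minus strand of chromosome 7. These are *SEMA3C* (ENSG00000075223.14) from 80742538 to 80919051, *SEMA3E* (ENSG00000170381.14) from 83363238 to 83649139, *SEMA3A* (ENSG00000075213.11) from 83955777 to 84194789 and *SEMA3D* (ENSG00000153993.14) from 84995553 to 85187056. The other three ligand genes lie on chromosome 3, with *SEMA3F* (ENSG00000001617.12) from 50155324 to 50189075 and *SEMA3B* (ENSG00000012171.20) from 50269147 to 50277546 on the plus strand and *SEMA3G* (ENSG00000010319.7) from 52433035 to 52445103 on the minus strand. *NRP1* (ENSG00000099250.18) lies on the minus strand of chromosome 10 from 33177492 to 33336262, and *NRP2* (ENSG00000118257.17) on chromosome 2, plus strand, from 205682500 to 205798133. Each value is a count of reads on the exons of 1 transcript of the gene. In GENCODE 44, 5.64% of the exon bases of *NRP1* and 2.21% of those of *NRP2* are also exons of a gene on the opposite strand, and the 7 ligand genes have no such bases. The strand setting of the counting is not given in the sources used here, so reads from these overlaps cannot be assigned to a strand.

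Upstream sequence is shown for *NRP2*, for *SEMA3C* and for the members with a match to the first set of letters searched below. It is the reference against which regulation at these starts can be read. Of the 9 genes, 7 had a start in the RefSeq promoter table of GRCh38.p14, and *SEMA3A* and *NRP1* had none. In the 250 bases before each start, 3 sets of letters were searched on both strands. These were GGAATG, the core bound by TEAD factors, which are partners of YAP, TGANTCA, bound by AP-1, and CACGTG, an E-box. The 3 sets of letters do not overlap one another in these windows. GGAATG was found in *SEMA3B*, 105 bases before the start, and in *SEMA3F*, 63 bases before it, and in 11.9% of the windows of 34943 promoters. The E-box was found in *SEMA3E*, 45 bases before the start, and in 6.32% of all windows, while TGANTCA was found in none of the 7 and in 6.59% of all windows. The stretches around GGAATG, in capitals, lie at chr3:50269046-50269071 (plus strand) for *SEMA3B* and at chr3:50155251-50155276 (plus strand) for *SEMA3F*, both within annotated exons.
SEMA3B: gttcggaagtGGAATGcgacccccca
SEMA3F: cccgcgctggGGAATGcgccctcggc

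*NRP2*, the most abundant of the genes, and *SEMA3C*, the ligand with the widest range of CPM between libraries (by fold, *SEMA3A* had a wider range), held none of the 3 sets of letters. Their upstream bases outside annotated exons lie at chr2:205682251-205682499 (plus strand) and chr7:80919184-80919301 (minus strand). The bases G and C made up 69.9% of the printed bases of *NRP2* and 78.8% of those of *SEMA3C*, and 58% in the median of all promoter windows.
NRP2: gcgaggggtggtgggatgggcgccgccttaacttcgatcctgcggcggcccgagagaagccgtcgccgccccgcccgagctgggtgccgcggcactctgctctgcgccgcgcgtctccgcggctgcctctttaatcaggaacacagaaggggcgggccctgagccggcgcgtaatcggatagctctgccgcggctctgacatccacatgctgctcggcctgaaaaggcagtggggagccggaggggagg
SEMA3C: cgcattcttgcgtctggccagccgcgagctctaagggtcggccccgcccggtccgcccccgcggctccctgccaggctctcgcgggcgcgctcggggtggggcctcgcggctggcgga

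Total counts per library were between 12161994 and 43651551, and at days 3 and 14 every DMSO library was deeper than every FAKi library. Levels are given as CPM, the count relative to the scaled size of the library, on a single scale over the 27 libraries, on which 1 CPM stood for 12.3 to 44.9 counts. The melanocytic markers had a summed level between 9438 and 14951 CPM. All of them but *DCT* were at 125 CPM or more in every library, while *DCT* was at 2.49 to 28.5 CPM. Of the markers of other cell types, *KRT5* was at 0 in 27 of 27 libraries, *CD3E* in 25, *CDH5* in 24 and *EPCAM* in 19. Other markers of non-melanocytic types were present. *PECAM1* was at 0 in 5 libraries and *KRT14* in 8, and *CDH1*, *COL1A1*, *LUM*, *SNAP25* and *RBFOX3* had counts in every library. The summed level was 5.50 to 16.9 CPM for fibroblast, 0.718 to 2.96 CPM for neuronal and 0.353 to 2.25 CPM for epithelial markers. The endothelial and immune marker sums came almost wholly from *EMCN* (19.7 to 113 CPM) and *CD68* (23.4 to 124 CPM), and both sums were lower in every FAKi library than in every DMSO library at days 7, 14 and 21. The melanocytic sum was higher in every FAKi library on these 3 days, for example at 14886 to 14951 CPM against 11729 to 13975 CPM at day 21. The defining markers *CDH5* and *PTPRC* did not exceed 0.163 and 0.0890 CPM in any library, and the part of these sums in the results was not tested. *PTK2*, which encodes the target FAK, was at 101 to 165 CPM in every library and passed the test on none of the 4 days, so its mRNA does not check the labels of an inhibitor of the protein. In addition, 3 libraries stood apart from the other libraries of their group, namely DMSO day 3 replicate 1, FAKi day 7 replicate 1 and DMSO day 21 replicate 3. Their mean distances to the libraries of their own group (root mean square log2 difference between libraries) were 0.691, 0.724 and 0.744, where the other libraries of the group were 0.475, 0.416 and 0.325 apart. The nearest libraries to them were DMSO day 0 replicate 3, FAKi day 14 replicate 1 and DMSO day 3 replicate 3, each of another day. FAKi day 7 replicate 1 lay 0.215 from its nearest library, where the closest libraries of a shared group were 0.228 apart. DMSO day 3 replicates 2 and 3 were both nearest to DMSO day 21 replicate 3. The cause was not tested, and the labels were kept as given. Results that rest on the 3 libraries that stand apart are given with and without them.

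Per length of the counted exons, the only scale on which different genes are compared here, the cells held far more *NRP2* than any other member. *NRP2* was at 15.1 ± 5.03 CPM per kilobase (SD, n = 27 libraries of all groups) and *NRP1* at 0.133 ± 0.0754. *NRP2* made up 97.1 to 99.8% of the summed neuropilin level per length in each library, with a median of 99.3%. The ratio of *NRP2* to *NRP1* was between 33.9 and 642. Among the ligands, *SEMA3B* (2.61 ± 0.796) and *SEMA3C* (2.25 ± 1.57) led, and *SEMA3B* was above *SEMA3C* in 17 of 27 libraries. *SEMA3F*, *SEMA3G* and *SEMA3A* followed at 0.605 ± 0.312, 0.347 ± 0.136 and 0.257 ± 0.177. *SEMA3D* was at 0.137 ± 0.0822, close to *NRP1*, which it exceeded in 15 of 27 libraries. Each other gene of this order was above its lower neighbour in 21 to 27 of 27 libraries. *SEMA3E*, the ligand that can act without a neuropilin, had 33 counts over all libraries and none in 19 of 27. A library at 0 allows up to 3 counts, or 0.0668 to 0.245 CPM at these depths, so its level could not be followed and no change is given for it.

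**Figure D1:**
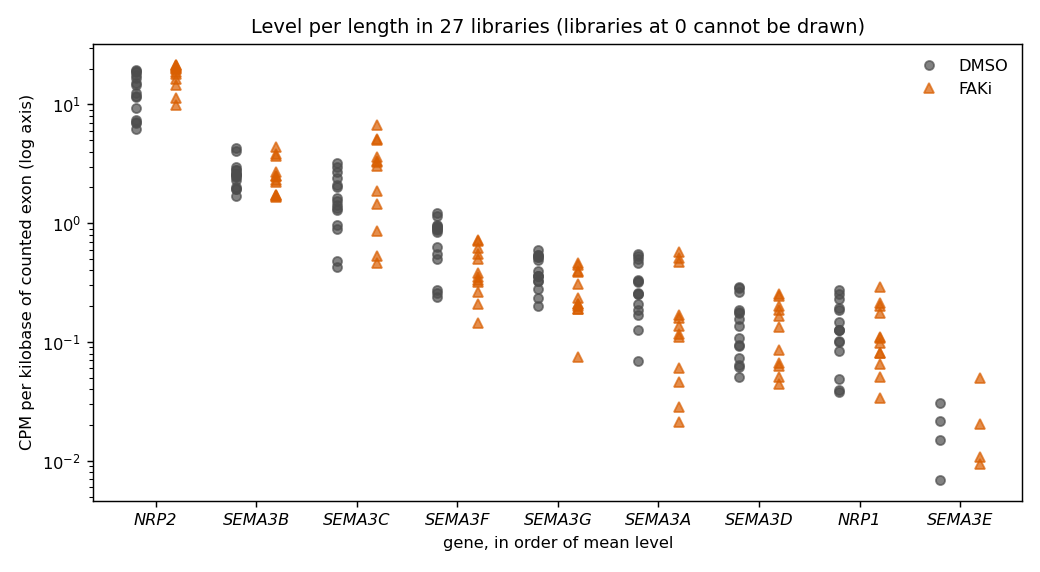
The level of each gene (CPM per kilobase of counted exon, log axis) is plotted for 27 libraries, in DMSO (circles) and FAKi (triangles), with the genes ordered by their mean. *NRP2* lies above every other gene in each library, and *SEMA3E* can be drawn in only 8 libraries because 19 were at 0.

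The receptor *NRP2* was higher in FAKi than in DMSO on each of the 4 days, without overlap between the libraries. At day 3 it was at 96.2, 61.9 and 47.5 CPM in DMSO replicates 1, 2 and 3 and at 108, 124 and 119.6 CPM in FAKi. At day 7 the values were 129, 124 and 118 CPM in DMSO and 136, 143 and 133 CPM in FAKi, so that the groups lay close together. At day 14 they were 101, 126 and 112 CPM in DMSO and 138, 139.9 and 143 CPM in FAKi. At day 21 they were 45.9, 41.5 and 48.6 CPM in DMSO against 65.02, 74.9 and 96.6 CPM in FAKi, which was close to the 78.4, 76.2 and 82.3 CPM of day 0. The mean of the control was lowest at day 21, where its highest library lay just above the lowest of DMSO day 3, while the FAKi libraries of day 21 overlapped those of day 0. In bulk RNA, fewer cells that express a gene and less of its RNA per cell cannot be told apart.

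By the quasi-likelihood test of edgeR, adjusted after Benjamini and Hochberg, the mean FAKi effect over days 3 to 21 on *NRP2* was a log2 change of 0.52 ± 0.09 (SE, 24 libraries, adjusted p = 0.000408), or 1.43-fold. The log2 change was 0.78 ± 0.24 at day 3 (adjusted p = 0.114), 0.14 ± 0.12 at day 7 (adjusted p = 0.763), 0.31 ± 0.10 at day 14 (adjusted p = 0.0487) and 0.85 ± 0.17 at day 21 (adjusted p = 0.0208). *NRP2* therefore passed the adjusted p at days 14 and 21 and in the mean, and nowhere the fold threshold, a log2 change over 1, that a call requires here in addition. At day 14 it did not pass with RLE scaling (adjusted p = 0.0526), upper quartile scaling (0.0676) or all 27 libraries in a single fit (0.267), or without any library of that day but DMSO replicate 2 (0.103 to 0.178). At day 21 the adjusted p was between 0.0819 and 0.0984 without DMSO replicate 1 or 2 or FAKi replicate 2 or 3. The difference of its effect among the 4 days had an adjusted p of 0.122. Without DMSO day 3 replicate 1, whose 96.2 CPM was the highest of its group, the change at day 3 was 1.12 with an adjusted p of 0.00024. With all 3 libraries that stand apart left out, the difference among days passed (adjusted p = 0.000206), and the mean effect was 0.62.

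*NRP1*, the other receptor, stayed within 0.196 to 1.71 CPM, that is 5 to 67 counts per library. Its mean level fell in order from FAKi day 3 (1.38 ± 0.284 CPM, SD, n = 3) through DMSO at day 7 (0.689 ± 0.0779) to DMSO at day 14 (0.332 ± 0.140), and every group overlapped its neighbour in that order. Its log2 changes under FAKi were 0.54, -0.62, 0.68 and -0.24 at days 3, 7, 14 and 21, with SEs between 0.41 and 0.98, and none passed. At day 21 the DMSO libraries were at 0.859, 1.08 and 0.231 CPM, and the last of these is the library that stands apart. Without DMSO day 3 replicate 1 the change at day 3 passed (1.08, adjusted p = 0.0439).

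*SEMA3C*, a ligand of both neuropilins that guides migrating neural crest cells, was higher in FAKi at days 3 and 14. At day 3 it was at 11.6, 9.78 and 4.32 CPM in DMSO and 24.1, 32.6 and 24.7 CPM in FAKi, the highest levels of the gene in the series. At day 14 it was at 6.52, 4.67 and 10.2 CPM in DMSO and 15.8, 14.5 and 16.0 CPM in FAKi. The groups did not overlap on these days, and the FAKi libraries of day 14 were about as high as the 15.6, 13.1 and 14.5 CPM of day 0. At day 7 the DMSO libraries were at 6.29, 6.88 and 7.42 CPM, and FAKi replicates 2 and 3, at 7.08 and 9.09 CPM, lay near or among them, while replicate 1, which stands apart, was at 17.5 CPM. At day 21 both treatments were low, with 2.06, 2.33 and 7.96 CPM in DMSO and 2.58, 2.22 and 4.13 CPM in FAKi, and the highest value again belongs to a library that stands apart.

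The log2 change of *SEMA3C* was 1.67 ± 0.32 at day 3 (adjusted p = 0.0945), 0.71 ± 0.31 at day 7 (adjusted p = 0.569), 1.11 ± 0.22 at day 14 (adjusted p = 0.00144) and -0.41 ± 0.53 at day 21 (adjusted p = 0.618). Only the change of day 14, 2.16-fold, was called in edgeR's test. The call was lost without DMSO day 14 replicate 2 (0.87, adjusted p = 0.00957) and with all 27 libraries in a single fit (1.11, adjusted p = 0.0769). The larger change of day 3 was called with DESeq2 (1.68, adjusted p = 9.58e-05) and without DMSO day 3 replicate 1 (1.96, adjusted p = 0.000242). Without DMSO day 21 replicate 3 the change at day 21 was 0.55 (adjusted p = 0.131), and without FAKi day 7 replicate 1 that of day 7 was 0.22. In edgeR's main fits a difference of the effect on *SEMA3C* between days did not pass. The change of the effect from day 3 to day 21 was -2.09 ± 0.67 (adjusted p = 0.113), and the difference among the 4 days had an adjusted p of 0.0888. Over days 3 to 21 the mean effect was 0.77 ± 0.21 (adjusted p = 0.0128). It was 0.96 with the 3 libraries that stand apart left out, and without DMSO day 21 replicate 3 alone it was 1.00 and called.

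**Figure D2:**
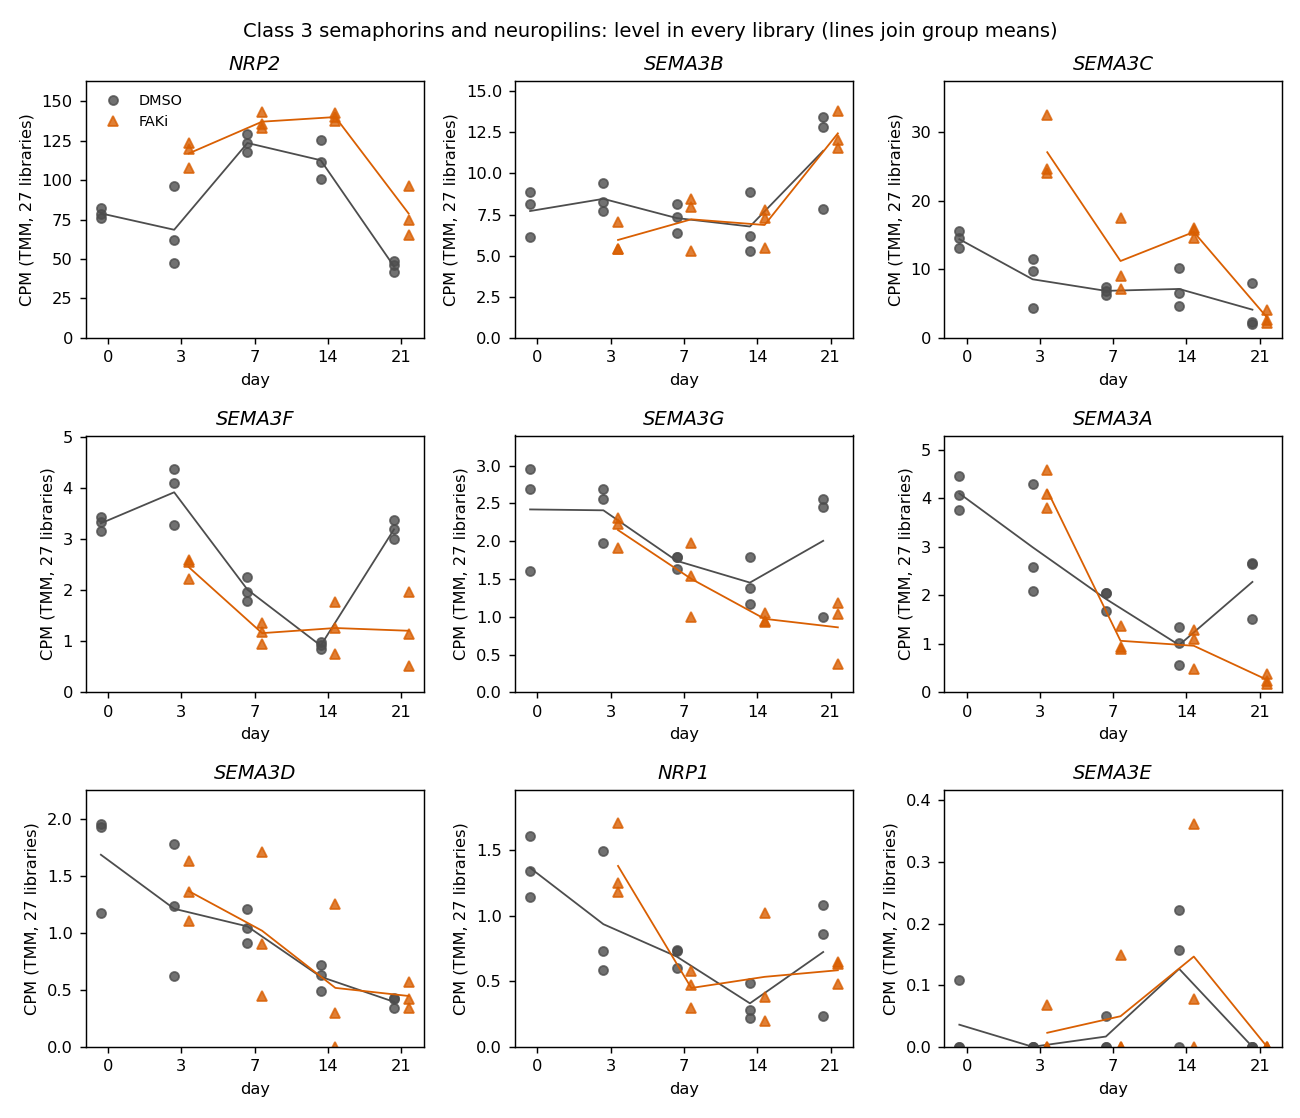
Levels in CPM (vertical axes, from 0) are plotted against the day (set at equal spacing) for each gene, with 1 point per library and lines that join the group means of DMSO (circles) and FAKi (triangles). *NRP2* lies higher in FAKi on every day, *SEMA3C* at days 3 and 14, and *SEMA3A* drops to between 0.172 and 0.370 CPM in FAKi at day 21.

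*SEMA3A*, the ligand after which the repulsive activity was first described, was lower in FAKi at day 21 by more than any other member on any day. Its 3 FAKi libraries were at 0.172, 0.370 and 0.229 CPM, or 4, 7 and 8 counts, against 1.52, 2.67 and 2.64 CPM in DMSO, or 53, 47 and 57 counts. At day 3 the FAKi libraries, at 3.80, 4.59 and 4.09 CPM, were as high as those of day 0, at 4.46, 4.08 and 3.77 CPM, and DMSO was at 4.29, 2.59 and 2.08 CPM. At day 7 FAKi was at 0.942, 1.36 and 0.885 CPM, below the 1.68, 2.05 and 2.05 CPM of DMSO, and at day 14 the groups overlapped, with 1.35, 1.02 and 0.555 CPM in DMSO and 1.29, 0.487 and 1.097 CPM in FAKi. In the control the mean was therefore lowest at day 14, and in FAKi at day 21. Against the mean of day 0, FAKi at day 21 held 0.0628 of the level and DMSO at day 21 held 0.555.

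The log2 change of *SEMA3A* at day 21 was -3.10 ± 0.44, or 8.58-fold lower (adjusted p = 0.00745). It lost its call without FAKi day 21 replicate 2 (adjusted p = 0.0541) or replicate 3 (adjusted p = 0.0603), at changes of -3.39 and -3.01. The changes at days 3, 7 and 14 were 0.47 ± 0.30, -0.85 ± 0.30 and -0.026 ± 0.60, and none passed in the main fit. Without DMSO day 3 replicate 1, which stands apart, the change at day 3 was 0.85. Over the alternative fits the adjusted p of the day 3 change was between 0.0189 and 0.635, and none of these fits called it. The effect itself differed between the days. From day 3 to day 21 it fell by 3.59 ± 0.52 on the log2 scale (12 libraries, adjusted p = 0.00457), and over the 4 days the difference had an adjusted p of 0.00199. Both held with the 3 libraries that stand apart left out, where the change from day 3 to day 21 was -3.78. The mean effect over the days was -0.88 ± 0.20 (adjusted p = 0.00441), an average over days that differ.

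*SEMA3F*, which like *SEMA3B* and *SEMA3G* lies on chromosome 3, was lower in FAKi without overlap at days 3, 7 and 21. It was at 4.38, 3.29 and 4.10 CPM in DMSO and 2.55, 2.22 and 2.59 CPM in FAKi at day 3, and at 1.98, 1.80 and 2.27 CPM against 0.942, 1.36 and 1.18 CPM at day 7. At day 14 the DMSO libraries were at 0.850, 0.921 and 0.979 CPM and those of FAKi, at 1.26, 1.77 and 0.745 CPM, lay around them. At day 21 DMSO was at 3.38, 3.01 and 3.19 CPM, near the 3.16, 3.34 and 3.44 CPM of day 0, while FAKi was at 0.516, 1.96 and 1.15 CPM. The mean effect on *SEMA3F* was -0.60 ± 0.17 (adjusted p = 0.0188), and the change at day 21 was -1.37 ± 0.41 (adjusted p = 0.064). The latter was called with the replicate number as a block (-1.48, adjusted p = 0.0123), a pairing that the labels do not establish. It was also called with DESeq2 (-1.38, adjusted p = 0.0122), with no count filter (adjusted p = 0.0108), with all 27 libraries in a single fit (adjusted p = 0.00269) and without DMSO day 21 replicate 3 (-1.37, adjusted p = 0.00418).

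*SEMA3B* did not pass in any comparison of FAKi with DMSO, and its mean log2 effect was -0.080 ± 0.11 (adjusted p = 0.692). It was below DMSO without overlap at day 3, where DMSO was at 8.26, 7.70 and 9.40 CPM and FAKi at 7.06, 5.41 and 5.39 CPM. Its highest levels in both treatments were those of day 21, with 13.5, 12.8 and 7.82 CPM in DMSO and 13.8, 12.01 and 11.5 CPM in FAKi. The lowest of the DMSO values there is that of the library that stands apart.

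*SEMA3G*, a ligand known from endothelial cells, and *SEMA3D*, a ligand known from the developing heart and vessels, were low throughout. *SEMA3G* was between 0.370 and 2.96 CPM. At day 14 it was at 1.38, 1.17 and 1.79 CPM in DMSO and at 0.932, 1.04 and 0.940 CPM in FAKi, without overlap, and at day 21 the groups overlapped, with 1.00, 2.56 and 2.45 CPM against 1.03, 0.370 and 1.18 CPM. The log2 change at day 21 was -1.11 ± 0.51 and did not pass (adjusted p = 0.168). With all 27 libraries in a single fit that change was called (-1.15, adjusted p = 0.0309). The mean effect on *SEMA3G* was -0.52 ± 0.19 and did not pass (adjusted p = 0.0607). *SEMA3D* was between 0 and 1.96 CPM, and its mean effect was 0.0057 ± 0.34, which did not pass.

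**Figure D3:**
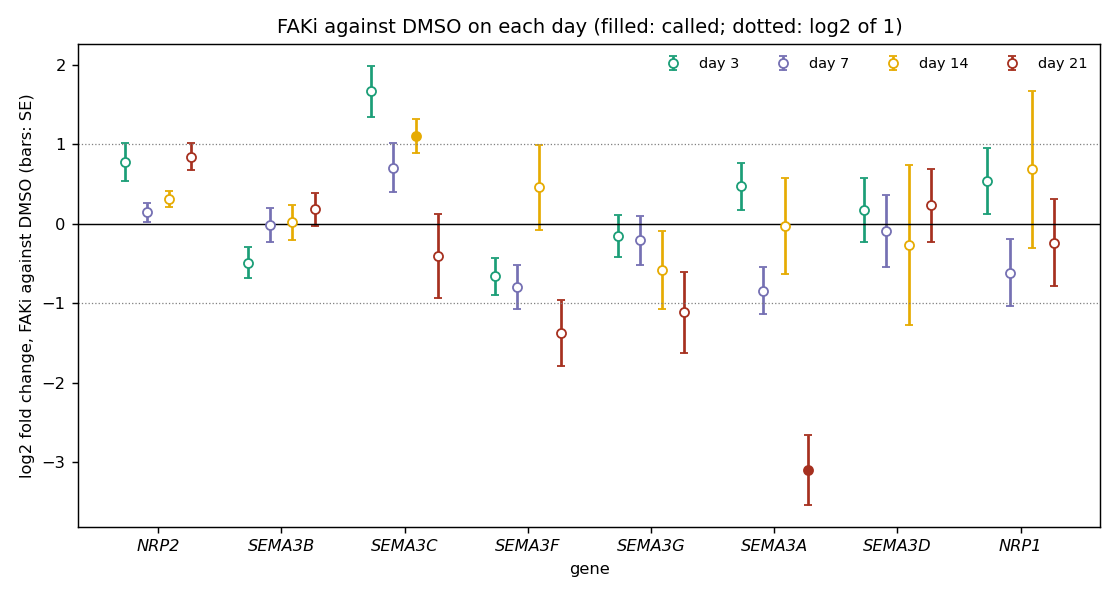
The log2 fold change of FAKi against DMSO (vertical axis, bars are SEs) is plotted by gene and day, with 6 libraries per comparison. Filled points passed both thresholds of a call (the fold threshold is dotted), which holds for *SEMA3C* at day 14 and *SEMA3A* at day 21.

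The counts of called members were read against all genes. At day 3, 0 of 8 members tested were called, where 0% of 22846 genes were (edgeR's test), while 4 members and 5442 genes had an unadjusted p under 0.05, and DESeq2 called 1 member and 755 genes. At day 7, 0 of 8 were called, against 0.0269% of 22299 genes by edgeR, while 3 members and 1955 genes had an unadjusted p under 0.05, and DESeq2 called 102 genes and no member. At day 14, 1 of 9 was called against 1.66% of all genes, and at day 21, 1 of 8 against 5.28%. By the adjusted p alone, 2 members passed at day 14 and 2 at day 21, where 12.4% and 11.6% of all genes did. In the mean effect 0 members passed both thresholds, where 1.89% of genes did, and 4 passed the adjusted p alone (*NRP2*, *SEMA3A*, *SEMA3C* and *SEMA3F*), where 15.7% did. The change from day 3 to day 21 was called for 1 of 8 members and 2.22% of genes, and the difference among days for 1 of 9 members and 10.3% of genes. Libraries of FAKi and DMSO did not overlap for 4, 4, 3 and 3 members at days 3, 7, 14 and 21, where this held for 30.9%, 16.7%, 28.9% and 35.4% of all genes tested. The median log2 change of the 8 members other than *SEMA3E* was 0.32, -0.15, 0.16 and -0.32 on these days, and that of all genes tested was -0.022, 0.014, -0.0071 and 0.015. The days have separate control groups, and the mean effect uses the libraries of all of them.

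Levels of several members also changed with time in the control. Between day 0 and day 21 of DMSO, *SEMA3D* fell by 2.07 ± 0.37 on the log2 scale (adjusted p = 0.00443), from 1.18, 1.96 and 1.94 CPM to 0.429, 0.341 and 0.417 CPM. *SEMA3C* fell by 1.82 ± 0.47 (adjusted p = 0.0149), and by 2.75 without DMSO day 21 replicate 3. *NRP2* (-0.81 ± 0.12, adjusted p = 0.00264) and *SEMA3A* (-0.87 ± 0.28, adjusted p = 0.0336) passed the adjusted p alone. The call of *SEMA3C* was lost without DMSO day 0 replicate 1 (adjusted p = 0.0587) or replicate 3 (adjusted p = 0.0542), and *SEMA3A* was called without DMSO day 21 replicate 2 (-1.01) or replicate 3 (-1.06). These are 2 of 8 members called where 23.3% of genes were, and 4 of 8 by the adjusted p alone where 44.9% were. Levels differed among the 5 DMSO days for 6 of 8 members, against 49.9% of genes, and among the 4 FAKi days for 5 of 8, against 45.1% of genes. The 6 were *SEMA3A*, *SEMA3C*, *SEMA3D*, *SEMA3F*, *NRP1* and *NRP2*, and the 5 were *SEMA3A*, *SEMA3B*, *SEMA3C*, *SEMA3G* and *NRP2*. Among the DMSO days, *NRP1* did not pass with the replicate block (adjusted p = 0.0784), with thinned counts (0.107) or without any of 9 of the 15 libraries (up to 0.118), *SEMA3C* without any of 5 (up to 0.0790) and *SEMA3D* with all 27 libraries in a single fit (0.0600). Among the FAKi days, *SEMA3G* did not pass without any of 4 of the 12 libraries (up to 0.108).

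The make-up of the secreted ligands followed from these levels. Per length, the 7 ligands together were at 7.60 ± 0.439 CPM per kilobase at day 0 (SD, n = 3). On day 3 the sum was 9.33 ± 0.827 under FAKi and 6.58 ± 0.917 under DMSO. On day 21 it was 5.17 ± 0.164 under FAKi and 6.10 ± 0.194 under DMSO, without overlap on either day. *SEMA3C* made up 39.4% ± 5.45 of this sum at day 0. On day 3 its share was 59.8% ± 5.56 under FAKi and 26.2% ± 9.30 under DMSO. In DMSO *SEMA3B* already had the largest mean share at days 3, 7 and 14, at 41.5%, 45.8% and 48.8%. *SEMA3C* was at 26.2%, 28.2% and 32.8% there. In FAKi at day 7 they were close, at 41.6% ± 8.34 for *SEMA3B* and 40.8% ± 12.6 for *SEMA3C*. At day 21 *SEMA3B* was the main ligand, with 76.3% ± 5.72 in FAKi and 58.9% ± 14.9 in DMSO. Its lowest share in FAKi, 70.6%, lay just above its highest in DMSO, 70.1%. DMSO replicate 3, which stands apart, was at 42.0%, and replicate 2 at 64.7%. In FAKi the share of *SEMA3A* went from 5.52% ± 0.352 at day 3 to 0.621% ± 0.266 at day 21, and the DMSO libraries of day 21 held 4.62% ± 1.34. These shares were not tested, and a share moves with the level of every ligand.

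**Figure D4:**
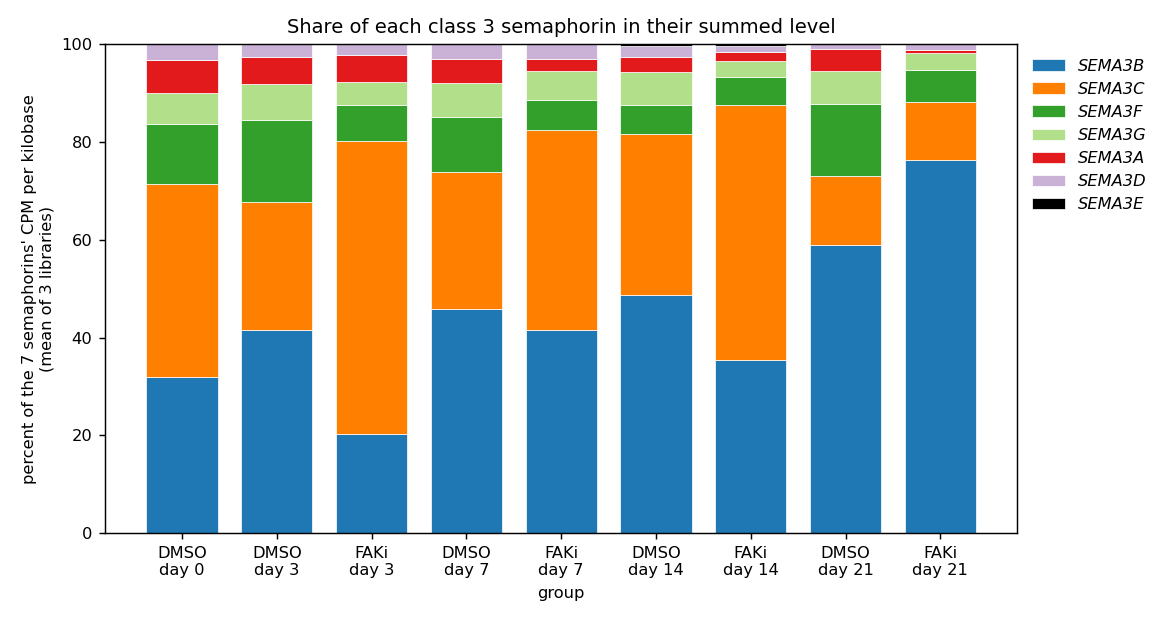
The bars give the percent of each ligand in the summed CPM per kilobase of the 7 ligands, as the mean of 3 libraries per group, from 0 to 100. *SEMA3C* is the largest part at day 0 and in FAKi at days 3 and 14. *SEMA3B* is the largest in DMSO at days 3, 7, 14 and 21 and in FAKi at days 7 and 21. In FAKi at day 7 it is nearly level with *SEMA3C*.

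Across the 9 group means (log2 CPM), other genes that ran closest to a member were taken from 12706 genes with a mean of at least 5 CPM. *NRP2* was closest to *NRG3*, ENSG00000287627 and *MSH3* (Pearson r = 0.986, 0.984 and 0.979). *SEMA3A* was closest to *TES*, *MCAM* and *STK39* (r = 0.983, 0.979 and 0.973), and *SEMA3C* to *SRGAP2*, *TMEM65* and *FLRT2* (r = 0.973, 0.964 and 0.961). For *SEMA3B* these were *FSTL3*, *CCDC71* and *RNF215* (r = 0.990, 0.987 and 0.986), for *SEMA3F* *ARMC9*, ENSG00000288100 and *PLEKHB2* (r = 0.969, 0.968 and 0.965), and for *SEMA3G* *CSTF3*, *STXBP6* and *TMEM135* (r = 0.989, 0.984 and 0.983). Between members, the highest value was that of *SEMA3A* and *SEMA3G* (r = 0.95) and the lowest that of *SEMA3B* and *SEMA3C* (r = -0.86). The points share libraries and scaling, so these values are a description.

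The partners of these genes were taken from 6 lists of receptors, ligands, proteases and mediators. Among the 5 plexins that serve class 3 semaphorins, *PLXNA2* was lower in FAKi at day 21, at 7.57 to 9.78 CPM against 27.3 to 38.2 CPM in DMSO (-1.76 ± 0.19, adjusted p = 0.0042). *PLXND1*, the receptor of *SEMA3E*, was higher at day 14, at 34.7 to 40.6 CPM against 15.01 to 21.8 CPM (1.01 ± 0.14, adjusted p = 4.07e-05). This call lay at the fold threshold and was lost under upper quartile scaling (0.99), edgeR's own count filter (0.9995) and thinned counts (0.9994). It was also lost without DMSO day 14 replicate 1 (0.86) or FAKi day 14 replicate 1 (0.98) or 2 (0.96). These were 1 plexin called higher of 5 tested at day 14 and 1 lower of 4 tested at day 21, where 1.66% and 5.28% of all genes were called, and none at days 3 and 7. *PLXNA2* lost its call without FAKi day 21 replicate 2 (adjusted p = 0.051).

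Of the co-receptors and neuropilin-like genes, 4 of 5 had enough counts to be tested, and 1, 2 and 2 of them fell at days 7, 14 and 21, where 0.0269%, 1.66% and 5.28% of all genes were called. *L1CAM*, a cell adhesion molecule that forms part of the *SEMA3A* receptor in neurons, was at 2.32 to 4.06 CPM in DMSO and 0.782 to 1.25 CPM in FAKi at day 14 (-1.81 ± 0.38, adjusted p = 0.00318). At day 21 it was at 6.87 to 16.1 CPM in DMSO and 1.38 to 1.98 CPM in FAKi (-2.63 ± 0.37, adjusted p = 0.00732). *NRCAM*, a related adhesion molecule that binds *NRP2*, was lower at day 7 (-1.96 ± 0.21, adjusted p = 0.0235), day 14 (-1.63 ± 0.23, adjusted p = 4.59e-05) and day 21 (-5.90 ± 0.58, adjusted p = 0.00348). At day 21 it was at 0 to 0.602 CPM in FAKi and 14.7 to 26.1 CPM in DMSO. Both were also called in the mean effect, at -1.58 ± 0.19 for *L1CAM* and -2.43 ± 0.17 for *NRCAM*. The call of *NRCAM* at day 7 was lost with the replicate block (adjusted p = 0.116) and without any of its libraries but FAKi replicate 1, and that of *L1CAM* at day 21 without FAKi replicate 2 or 3 (adjusted p = 0.0655 and 0.0603).

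Of the 5 other neuropilin ligands, 1 was called at day 14, where 1.66% of all genes were, and none on another day. This was *VEGFA*, which promotes vessel growth. It was at 31.8 to 37.4 CPM in FAKi and 108 to 113 CPM in DMSO (-1.64 ± 0.10, adjusted p = 9.4e-10). At day 21 the direction was opposite, with 138 to 167 CPM in FAKi and 64.7 to 106 CPM in DMSO (0.93 ± 0.20, adjusted p = 0.0257), and without DMSO day 21 replicate 3 that change was called (1.17). Of the 3 VEGF receptors none was called on any day, *KDR* was too low to be tested, *FLT1* was at 0 to 0.409 CPM and *FLT4* at 2.61 to 6.57 CPM. Of the 4 proprotein convertases, 1 was called at day 14, where 1.66% of all genes were. This was *PCSK7*, at 19.7 to 24.7 CPM in FAKi and 10.0 to 11.4 CPM in DMSO (1.05 ± 0.15, adjusted p = 4.98e-05). It was below the fold threshold without FAKi day 14 replicate 2 (0.95). Of the 19 intracellular mediators, 1 was called in the comparisons by day, at day 21, where 5.28% of all genes were called. *CRMP1*, a mediator of *SEMA3A* signaling, was at 2.37 to 5.50 CPM in FAKi and 0.227 to 1.16 CPM in DMSO at day 21 (2.65 ± 0.54, adjusted p = 0.022). Its mean effect was 1.04 ± 0.19 (adjusted p = 0.000817), and it was between 0.94 and 1.00 without any of 5 of the 24 libraries (DMSO day 3 replicate 3, FAKi day 7 replicate 1, DMSO day 21 replicates 1 and 2 and FAKi day 21 replicate 3). The call at day 21 was lost without DMSO replicate 1 or 2 or any of the 3 FAKi replicates, with adjusted p between 0.0527 and 0.115.

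**Figure D5:**
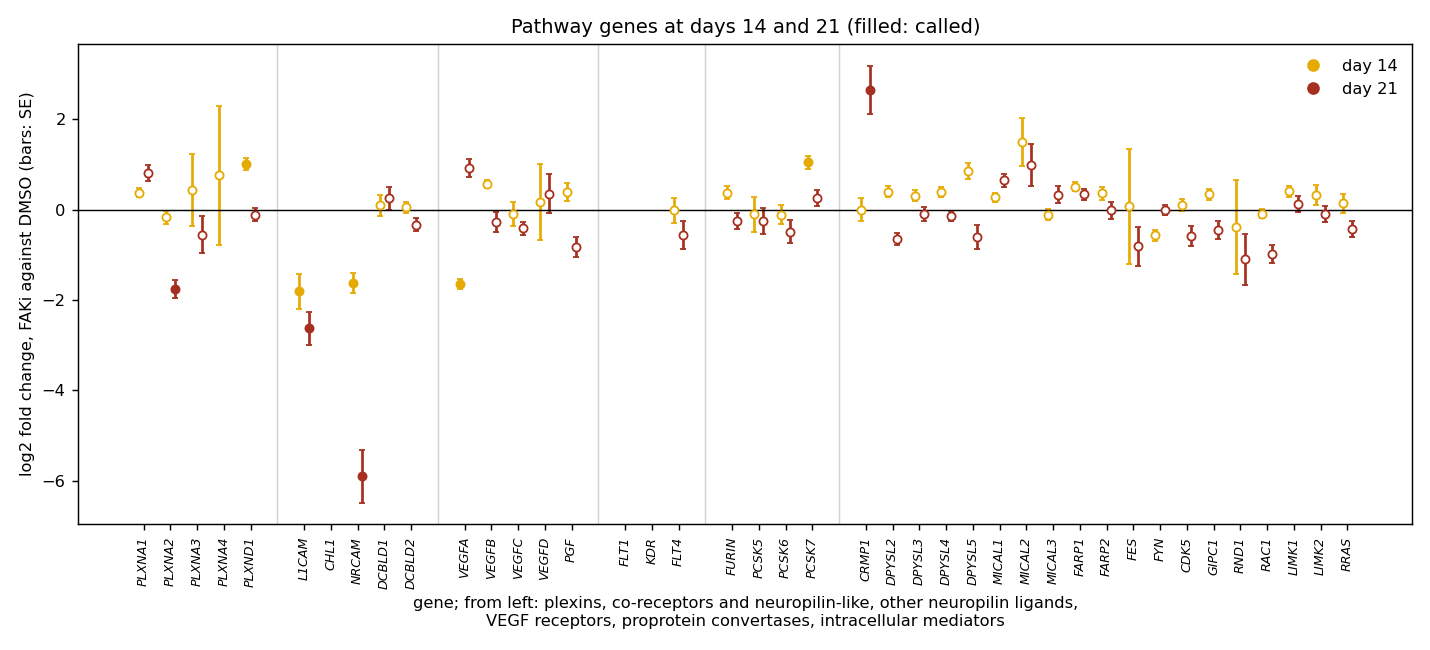
The log2 fold change of FAKi against DMSO (bars are SEs) at days 14 and 21 is plotted for each tested gene of the 6 partner lists, and filled points were called. *L1CAM* and *NRCAM* lie below 0 on both days, and *VEGFA* lies below 0 at day 14 and above it at day 21.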

How the data were processed

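RNA was sequenced from 27 libraries of 92.1 cells, in 9 groups of 3 set by the treatment and day of the labels. Following the methods, the authors trimmed reads with Trim Galore, checked them with FastQC 0.11.8 and aligned them to hg38 with STAR 2.5.3a. The deposited values are raw counts, which per the file headers the authors made with HOMER on the exons of 1 transcript per gene of GENCODE 39, without normalization. How reads that map to several places were counted is not given in the sources used here. All 27 columns were matched to a sample by their label, with 0 left over. The column of 1 library (DMSO day 21 replicate 3) carries a day number that is not in the series, and the day of its title was used. This library is among those that stand apart. Of 61533 genes, 17687 had no count.

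Per comparison, genes had to reach 20 counts over its libraries, libraries were scaled by TMM, and edgeR 4.0.16 (R 4.3.3) was used for the quasi-likelihood F test with Benjamini-Hochberg adjustment over all genes tested. Calls required an adjusted p of at most 0.05 and, for comparisons with a direction, an absolute log2 change over 1. Days were fitted on their 6 libraries, the mean effect and the difference among days on 24, and the change from day 3 to day 21 on 12. SEs are the log2 change divided by the root of the F value. Group levels are CPM without a prior count, and distances between libraries used log2 CPM with a prior count of 2. DESeq2, the tool that the methods name, was an alternative, used here in version 1.42.0. Other alternatives were other scalings and filters, thinned counts, a replicate block, 1 fit of all libraries and each library left out. Leaving out the 3 libraries that stand apart together was added after seeing the data. The steps were tested on simulated data, with the same spread for every gene and changes only in genes with a mean of at least 20 counts. That test does not cover libraries that stand apart or members with few counts.

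At day 21 the deviations of same-numbered libraries from their group means correlated at r = 0.443, 0.128 and 0.658 across genes. At day 3 r was 0.000838 to 0.107, at day 14 -0.0258 to 0.00966 and at day 7 -0.144 to -0.0716. Libraries of different number were not compared, so these values do not establish a pairing, and the main fits use none. The members and the partner and marker lists were chosen with earlier results of these data known. All 9 members are named. From a partner list the called genes are named, at most 4 by the largest change, and otherwise the 2 of highest mean level. Counts cover sampling error, and intervals from them would not cover amplification.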

Additional observations from a re-analysis of the deposited data

Results flagged for a closer look

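The effect of FAKi on *SEMA3A* differed between days by the tests of the difference itself, with a change from day 3 to day 21 of -3.59 on the log2 scale and an adjusted p of 0.00199 over the 4 days in edgeR's test. Among the named partners the effect also differed over the 4 days for *PLXNA2* (adjusted p = 0.000345), *PLXND1* (adjusted p = 0.00134), *L1CAM* (adjusted p = 0.0412), *NRCAM* (adjusted p = 3.61e-06), *VEGFA* (adjusted p = 0.00121), *FLT1* (adjusted p = 0.019), *PCSK7* (adjusted p = 0.00571) and *CRMP1* (adjusted p = 0.0176). For *FLT1*, at 0 to 0.409 CPM, the difference did not pass after thinning to the smallest library (adjusted p = 0.157), and for *L1CAM* not with the replicate block (adjusted p = 0.0603) and without any of 17 of the 24 libraries. For *CRMP1* it did not pass without DMSO day 21 replicate 1 or 2 or FAKi day 21 replicate 3. Except for *FLT1*, these partners were named for a call on a day of the same data, so they are a selected set. Among all genes tested for a difference among days, 10.3% passed. By list, 2 of 5 plexins, 2 of 4 co-receptors and neuropilin-like genes and 2 of 5 other neuropilin ligands passed. So did 1 of 2 VEGF receptors, 1 of 4 convertases and 5 of 19 mediators. Those not named here are other neuropilin ligands or mediators. Groups of 3 libraries are too small for a test of single libraries within a group.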

How the results depend on the processing

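The number of members called is given here where it left the range of 1.5 times the main number. At day 3 it was 1 with DESeq2, with no count filter and with all 27 libraries in a single fit, against 0, and 0 to 3 with each library left out, the 3 without DMSO day 3 replicate 1. At day 14 it was 2 by the adjusted p alone and 0 with all 27 libraries, against 1, and 0 to 1 with each library left out. At day 21 it was 2 by the adjusted p alone, with DESeq2, with no filter and with the replicate block and 3 with all 27 libraries, against 1. It was 0 to 2 with each library left out, with 2 without DMSO day 21 replicate 3 and 0 without FAKi day 21 replicate 2 or 3. For the mean effect it was 4 by the adjusted p alone, against 0, and 0 to 1 with each library left out (*SEMA3C* without DMSO day 21 replicate 3). For the change from day 3 to day 21 it was 2 with DESeq2, no filter or all 27 libraries and 3 without the libraries that stand apart (*SEMA3A*, *SEMA3C* and *NRP1*), against 1. For the difference among days it was 2 with no filter, with all 27 libraries and with thinned counts, 3 with DESeq2 and 4 without the libraries that stand apart (*SEMA3A*, *SEMA3C*, *SEMA3F* and *NRP2*), against 1, and 1 to 4 with each library left out, with 4 without DMSO day 3 replicate 1 and 3 without FAKi day 7 replicate 1. For DMSO day 21 against day 0 it was 4 by the adjusted p alone, against 2, and 1 to 3 with each library left out. Among FAKi days it was 8 with no filter, against 5. The cause of these shifts was not tested.

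Changes that took the opposite sign were all of members that were not called in either fit. With counts thinned to the smallest library these were *SEMA3D* at day 3 (-0.13), *SEMA3A* at day 14 (0.013), *NRP1* at day 21 (0.089) and the mean effects of *SEMA3D* (-0.053) and *NRP1* (-0.064). The mean effect of *SEMA3D* was also -0.00025 with RLE scaling, -0.0017 with no filter, -0.0023 with all 27 libraries and -0.077 with the replicate block, and *SEMA3B* at day 14 was -0.0056 with upper quartile scaling. Without the libraries that stand apart, the change from day 3 to day 21 was -0.31 for *SEMA3D* and -0.20 for *NRP2*. With each library left out, the ranges that crossed 0 were -0.13 to 0.59 for *SEMA3D* at day 3, then at day 7 -0.14 to 0.17 for *SEMA3B*, -0.63 to 0.25 for *SEMA3D* and -0.47 to 0.023 for *SEMA3G*. At day 14 they were -0.31 to 0.29 for *SEMA3A*, -0.14 to 0.26 for *SEMA3B*, -1.99 to 0.32 for *SEMA3D* and -0.20 to 1.07 for *NRP1*, and at day 21 -0.016 to 0.30 for *SEMA3B*, -0.76 to 0.55 for *SEMA3C* and -0.63 to 0.12 for *NRP1*. For the mean effect they were -0.41 to 0.15 for *SEMA3D* and -0.13 to 0.23 for *NRP1*, for the change from day 3 to day 21 -0.35 to 0.34 for *SEMA3D* and -0.27 to 0.25 for *NRP2*, and for DMSO day 21 against day 0 -0.58 to 0.063 for *SEMA3G*.

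Over all genes, the number called at day 3 was 0 in the main fit, 755 with DESeq2, 802 with all 27 libraries, 1181 with no filter and 2765 without DMSO day 3 replicate 1. At day 7 it was 6, 102 with DESeq2, 69 with all 27 libraries, 220 with no filter, 248 without FAKi day 7 replicate 1 and 0 with the replicate block. At day 14 it was 388 and 632 with all 27 libraries. At day 21 it was 1226, 1913 with no filter, 1954 with all 27 libraries, 2076 with the replicate block and 52 to 4248 with each library left out, the highest without DMSO day 21 replicate 3. The mean effect gave 528, 1037 without the libraries that stand apart and 376 to 848 with each library left out. The change from day 3 to day 21 gave 564, 1110 with DESeq2, 1401 with no filter, 176 with the replicate block and 2564 without the libraries that stand apart and 156 to 1666 with each library left out, and 170 of the 564 were higher against 241 of 566 with upper quartile scaling. The difference among days gave 2881, 4831 with no filter, 5219 with DESeq2, 10510 without the libraries that stand apart and 1574 to 6046 with each library left out. DMSO day 21 against day 0 gave 5177, and 3402 to 7999 with each library left out. In these 4 comparisons the highest number was that without DMSO day 21 replicate 3, and the lowest was without DMSO day 3 replicate 3 for the mean effect, FAKi day 21 replicate 3 for the change and the difference among days, and DMSO day 21 replicate 1 for DMSO. Under the replicate block *SEMA3F* at day 21 gained a call, *NRP1* lost its difference among DMSO days (adjusted p = 0.0784), *NRCAM* lost its call at day 7 and *L1CAM* its difference among days, and no other call of a member or named partner changed. With 4 to 57 counts per library for *SEMA3A* at day 21 and 0 to 12 for *SEMA3E*, depth limits what can be said of the low members.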
